A study of Homo sapiens with 6 samples.

Results

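Polyamine synthesis and breakdown genes were followed across 6 samples of U87MG cells, an established human glioblastoma line. The 10 genes were the breakdown enzymes SAT1, SAT2 and SMOX, the synthesis enzymes ODC1, AMD1, SRM and SMS, and the regulators OAZ1, OAZ2 and AZIN1. A row of the expression table was taken for a gene where its annotation gave that 1 symbol and no other, and the row with the highest mean over 6 arrays was to be kept. All 10 genes had exactly 1 such row, out of 22411 genes with a row, and all 10 passed the filter on dim values that left 33764 of 67528 transcript clusters to test. A transcript cluster is the array's unit for 1 gene or transcript.

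The cells carried a lentiviral short hairpin RNA named sh50, sh52 or shGFP, with 2 samples of each, numbered 1 and 2. Every sample was U87MG, infected, drug-selected and then grown to subconfluence for 5 days, so the shGFP cells share infection and selection with the others. The series' title names SAT1 and its design text gives 2 hairpin clones whose last digits match sh50 and sh52, but no target is stated for any hairpin. Neither the drug nor whether the numbered samples are separate infections or cultures is given, so p-values reflect how far these samples differed and nothing more, and that spread may be technical, while the number of arrays limits the precision. All values are log2 levels on the authors' scale, with base 2 assumed, and a difference of 1 is then a 2-fold difference. RNA of whole cultures was measured, so fewer cells expressing a gene and less of its RNA per cell cannot be told apart.

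After the authors' RMA, the median over all features lay between 3.98 and 4.12, and it was highest on the array labelled sh52 replicate 1. As RMA scales arrays to each other, near medians do not show that the samples were alike. That array also stood apart in the hybridization controls, RNAs added equally to every array. They averaged 11.52 there and between 10.58 and 10.98 on the other 5 arrays. A second set of added RNAs, the polyA controls, averaged 8.14 on sh52 replicate 1 and between 7.19 and 7.69 on the other 5 arrays. Of 9 glioma and mesenchymal markers, 6 passed the filter, VIM, FN1, CD44, CHI3L1, NES and GFAP, while S100B, SOX2 and OLIG2 did not. GFAP averaged 4.48, near the filter of 3.98. Of the markers of other cells, 1 of 6 passed for blood cells (CD68, mean 15.60) and 1 of 4 for endothelial cells (KDR, mean 5.70). For epithelial cells 4 of 6 passed, KRT8 (mean 7.13), EPCAM (4.97), MUC1 (4.15) and KRT18 (4.03). Summed log2 levels of blood markers, those below the filter included, were 32.3 to 33.0 on hairpin arrays and 32.1 to 32.7 on shGFP arrays. In the same order they were 26.7 to 28.0 and 26.8 to 27.0 for epithelial markers. For endothelial markers they were 16.8 to 17.9 and 16.5 to 16.6. PTPRC, the defining marker of blood cells, lay below the filter, as did PECAM1, CDH5 and VWF for endothelial cells and CDH1 for epithelial cells; the part of other cells in the results was not tested.

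Polyamines are small positively charged molecules that bind nucleic acids and are needed for growth. ODC1 makes putrescine from ornithine, AMD1 makes the aminopropyl donor from S-adenosylmethionine, and SRM and SMS use that donor to make spermidine and then spermine. SAT1 acetylates spermidine and spermine for export or oxidation, SMOX oxidises spermine back to spermidine, antizymes such as OAZ1 and OAZ2 bind ODC1 protein and send it to the proteasome, and AZIN1 binds antizyme in ODC1's place. Much of this control acts on translation and protein stability, which an array of RNA does not measure.

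ODC1, SAT1 and AMD1 spread more widely over the 6 arrays than the other 7 members. ODC1 spanned 3.53, SAT1 2.99 and AMD1 2.54 log2 units between their lowest and highest array. A span at least as wide was seen in 0.432%, 0.865% and 1.73% of the 33764 tested transcripts, in that order of genes. The median span of all tested transcripts was 0.65. These transcripts include dim ones near the filter of 3.98, where signal close to background compresses differences. ODC1, SAT1 and AMD1 averaged 12.32, 9.13 and 11.96, and the share among transcripts as bright as these was not worked out. The other 7 members spanned between 0.42 and 1.15. Among them, the 2 aminopropyl transferases spanned 0.58 (SRM) and 0.68 (SMS). ODC1, AMD1 and SAT1 are known for rapid protein turnover, which these arrays do not measure. Any link between that and the spans of their RNA was not tested.

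The promoters of ODC1, AMD1 and SAT1, and of SRM for contrast, are shown because these genes differed in how much they varied. They come from RefSeq on GRCh38.p14 and run from 250 bases before to 50 after an annotated start, on the strand named. Capitals mark CACGTG, the letters bound by MYC with MAX, and TATAA, the core of a TATA box.
ODC1, chr2:10448278-10448577, minus strand: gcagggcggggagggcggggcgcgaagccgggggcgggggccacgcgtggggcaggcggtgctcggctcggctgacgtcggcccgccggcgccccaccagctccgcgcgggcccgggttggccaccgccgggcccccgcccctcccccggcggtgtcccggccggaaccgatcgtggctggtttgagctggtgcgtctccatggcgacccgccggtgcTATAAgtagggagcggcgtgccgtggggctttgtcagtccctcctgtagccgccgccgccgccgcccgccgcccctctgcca
ODC1, chr2:10447963-10448262, minus strand: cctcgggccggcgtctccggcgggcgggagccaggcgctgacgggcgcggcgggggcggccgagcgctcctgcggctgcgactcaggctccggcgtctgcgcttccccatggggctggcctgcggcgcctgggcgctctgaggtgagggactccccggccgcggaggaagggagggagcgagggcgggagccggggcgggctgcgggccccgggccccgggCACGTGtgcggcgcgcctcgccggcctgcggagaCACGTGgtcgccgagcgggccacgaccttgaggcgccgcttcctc
AMD1, chr6:110874534-110874833, plus strand: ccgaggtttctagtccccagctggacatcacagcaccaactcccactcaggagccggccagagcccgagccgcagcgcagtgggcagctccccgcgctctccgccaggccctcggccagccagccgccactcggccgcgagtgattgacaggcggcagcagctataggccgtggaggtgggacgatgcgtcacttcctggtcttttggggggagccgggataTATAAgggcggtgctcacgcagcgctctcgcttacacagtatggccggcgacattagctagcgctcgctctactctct
SAT1, chrX:23782923-23783222, plus strand: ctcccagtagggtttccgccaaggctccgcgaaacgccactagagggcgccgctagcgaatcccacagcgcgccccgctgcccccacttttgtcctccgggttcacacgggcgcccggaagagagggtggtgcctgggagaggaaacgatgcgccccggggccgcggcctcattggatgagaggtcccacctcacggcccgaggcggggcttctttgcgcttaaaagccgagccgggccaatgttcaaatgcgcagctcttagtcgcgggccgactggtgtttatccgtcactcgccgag
SRM, chr1:11059969-11060268, minus strand: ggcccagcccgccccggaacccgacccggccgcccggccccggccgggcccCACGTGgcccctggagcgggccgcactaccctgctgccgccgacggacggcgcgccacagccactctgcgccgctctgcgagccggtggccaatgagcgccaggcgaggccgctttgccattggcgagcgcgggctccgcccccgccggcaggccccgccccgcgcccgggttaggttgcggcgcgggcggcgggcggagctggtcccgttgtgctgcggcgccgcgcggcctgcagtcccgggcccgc
Windows were on hand for 8 of the 10 members (all but SMOX and AZIN1), 12 windows in all, and both strands of each were searched. CACGTG reads the same on both strands. It lay in 2 of the 12 windows, with 2 copies at the ODC1 start nearer the gene body and 1 copy at SRM, and in 7.26% of all 35116 windows of this length. TATAA lay in 4 windows of 3 members (ODC1, AMD1 and OAZ1), against 20.4% of all windows. It began at position -32 from the start in the ODC1 window that holds it and at position -28 in the AMD1 window shown. In the OAZ1 window it began at position 6, after the start. The AMD1 windows from 110874534 and 110874535 overlap, as do the SAT2 windows from 7627772 and 7627827, so a site they share is counted in each. GGGCGG, the core of an SP1 site, lay in 9 windows of 6 members (45.0% of all windows) and was in neither the SAT1 nor the SAT2 windows, and CCAAT lay in 7 windows of 6 members (34.6%), 2 copies of it at SAT1. TGACNNNGC, the core of the element read by the oxidative stress factor NFE2L2, lay in 3 windows of 2 members (13.3%). Such matches describe letters and can adjoin (GGGCGG directly follows TATAA in the AMD1 window shown). The SAT1 window of 66.0% G and C holds neither capitalised motif, while the SRM window reaches 82.0%.

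SAT1, the rate-limiting enzyme of polyamine breakdown and the gene of the series' title, is given first. It read 9.36 and 8.35 in sh50 cells, 10.83 and 7.84 in sh52 cells, and 9.45 and 8.96 in shGFP cells, replicate 1 before replicate 2. The array labelled sh52 replicate 1 held the highest SAT1 level of all 6 and the one labelled sh52 replicate 2 the lowest, so both ends of the range came from the same hairpin and the groups overlapped. The mean was 8.85 ± 0.72 in sh50 cells, 9.34 ± 2.11 in sh52 cells and 9.20 ± 0.34 in shGFP cells (SD, n = 2 each). The differences in limma's fit were -0.35 ± 0.96 (SE) for sh50, with a 95% interval from -2.73 to 2.03 and an adjusted p of 0.982, and 0.13 ± 0.96 for sh52, with an interval from -2.25 to 2.51 and an adjusted p of 0.980. Without sh52 replicate 1, the sh52 difference was -1.36, and without sh52 replicate 2 it was 1.63, so its sign turned on 1 array, as did that of sh50 (0.16 without sh50 replicate 2). With the hybridization controls as a covariate the difference was -1.37 for sh50 (adjusted p 0.368) and -2.01 for sh52 (adjusted p 0.842). Whether SAT1 was lower in either set of hairpin cells could not be told from these arrays: a drop or rise of 4-fold in sh52 cells lies within the interval.

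SAT2, a relative of SAT1 for which polyamines are poor substrates, had a narrower range than SAT1. It read 9.09 and 9.32 in sh50 cells, 9.72 and 10.12 in sh52 cells, and 8.96 and 9.64 in shGFP cells. Both sh52 arrays lay above both shGFP arrays, while the sh50 arrays lay between them. The difference was 0.62 ± 0.28 for sh52 (adjusted p 0.604 by limma) and -0.10 ± 0.28 for sh50 (0.983), and the difference between the hairpins themselves was not tested. The sh52 value was 0.28 without shGFP replicate 1 and 0.96 without shGFP replicate 2.

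SMOX, spermine oxidase, read 6.30 and 6.18 in sh50 cells, 6.30 and 5.92 in sh52 cells, and 5.93 and 5.81 in shGFP cells. Both sh50 arrays and sh52 replicate 1 lay above both shGFP arrays, and sh52 replicate 2 lay between them. The difference was 0.37 ± 0.19 for sh50, with an interval from -0.10 to 0.84 (adjusted p 0.703), and 0.24 ± 0.19 for sh52 (adjusted p 0.751). The sh52 value was 0.0499 without sh52 replicate 1 and 0.43 without sh52 replicate 2.

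**Figure D1:**
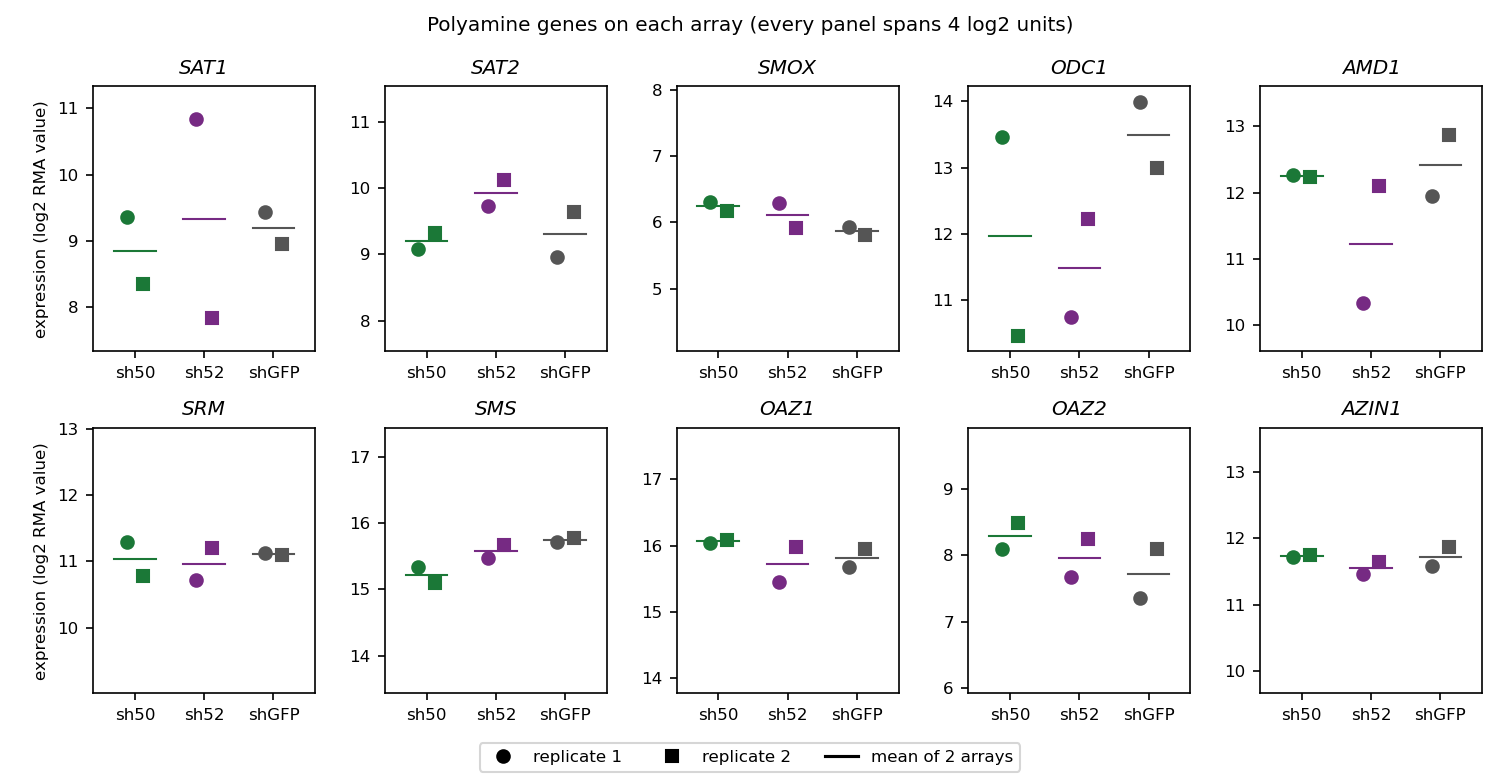
Log2 level of the 10 genes on each array, 1 panel a gene, with sh50, sh52 and shGFP from left to right; points are single arrays and bars group means. SAT1, ODC1 and AMD1 spread by more than 2.5 log2 units, and the other 7 genes by at most 1.15.

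ODC1, the enzyme that starts the pathway, had the widest span. It read 13.47 and 10.47 in sh50 cells, 10.75 and 12.23 in sh52 cells, and 13.996 and 13.002 in shGFP cells. Both sh52 arrays lay under both shGFP arrays, and so did 1 of the sh50 arrays, while the other sh50 array lay between the 2 shGFP arrays, 3.001 above its partner. The mean was 11.97 ± 2.12 in sh50 cells, 11.49 ± 1.05 in sh52 cells and 13.50 ± 0.70 in shGFP cells (SD, n = 2 each). The differences were -1.53 ± 1.05 for sh50 (95% interval -4.13 to 1.07, adjusted p 0.814) and -2.01 ± 1.05 for sh52 (-4.60 to 0.59, adjusted p 0.635), which for sh52 would be a level 4.02-fold lower if the base is 2. The mean of both hairpins differed from shGFP by -1.77 ± 0.91 (-4.02 to 0.48, adjusted p 0.625). Leaving out 1 array at a time moved this between -2.52 and -1.02; the sh50 difference moved between -3.03 without sh50 replicate 1 and -0.03 without sh50 replicate 2, and the sh52 difference between -2.75 and -1.27.

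AMD1, the decarboxylase that supplies the aminopropyl donor, had both sh50 arrays between the shGFP arrays. It read 12.26 and 12.23 in sh50 cells, 10.34 and 12.10 in sh52 cells, and 11.94 and 12.87 in shGFP cells. The array labelled sh52 replicate 1 was the lowest of all 6, as it was the highest for SAT1, and it alone stood outside the range from 11.94 to 12.87. The difference was -1.19 ± 0.61 for sh52 (95% interval -2.70 to 0.32, adjusted p 0.632) and -0.16 ± 0.61 for sh50 (-1.68 to 1.35, adjusted p 0.988). The SE is the same for both because limma's fit pools the spread of all 6 arrays. The SD was 0.02 in sh50 cells, 1.25 in sh52 cells and 0.66 in shGFP cells, so the sh50 interval also holds the spread of sh52. Without sh52 replicate 1 the sh52 difference was -0.31, and without sh52 replicate 2 it was -2.07, at an adjusted p of 0.163, the lowest of any member under any sh52 alternative.

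SRM, spermidine synthase, read 11.30 and 10.78 in sh50 cells, 10.72 and 11.21 in sh52 cells, and 11.13 and 11.10 in shGFP cells. The groups overlapped, and the differences were -0.08 ± 0.25 for sh50 (adjusted p 0.985) and -0.15 ± 0.25 for sh52 (adjusted p 0.900). SMS, spermine synthase, read 15.34 and 15.09 in sh50 cells, 15.47 and 15.67 in sh52 cells, and 15.71 and 15.77 in shGFP cells. All 4 hairpin arrays lay under both shGFP arrays, and SMS was the only member of the 10 for which that held, in either direction. The difference was -0.52 ± 0.17 for sh50 (95% interval -0.95 to -0.09, unadjusted p 0.0251, adjusted p 0.541) and -0.17 ± 0.17 for sh52 (adjusted p 0.815). Taken over both hairpins it was -0.35 ± 0.15, with an interval from -0.72 to 0.03 and an adjusted p of 0.563, so the difference did not pass the test.

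OAZ1, the main antizyme, read 16.04 and 16.09 in sh50 cells, 15.46 and 15.98 in sh52 cells, and 15.68 and 15.95 in shGFP cells. Its sh50 arrays lay above both shGFP arrays, at 0.25 ± 0.23 (adjusted p 0.881), and its sh52 arrays did not (-0.10 ± 0.23, adjusted p 0.935). OAZ2, a second antizyme, read 8.09 and 8.48 in sh50 cells, 7.67 and 8.24 in sh52 cells, and 7.35 and 8.09 in shGFP cells. Its difference was 0.56 ± 0.33 for sh50 (95% interval -0.26 to 1.39, adjusted p 0.765) and 0.23 ± 0.33 for sh52 (adjusted p 0.877). The sh50 difference was 0.19 without shGFP replicate 1 and 0.94 without shGFP replicate 2, and the sh52 difference was -0.14 and 0.60 in the same order. AZIN1, the antizyme inhibitor, had the narrowest range of the 10, reading 11.72 and 11.75 in sh50 cells, 11.45 and 11.65 in sh52 cells, and 11.58 and 11.87 in shGFP cells, with differences of 0.01 ± 0.18 for sh50 (adjusted p 0.998) and -0.17 ± 0.18 for sh52 (adjusted p 0.815).

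None of the 10 genes passed an adjusted p of 0.05 in limma's fit for either hairpin or for their mean, and neither did any of the 33764 transcripts (called were 0.0% with sh50, 0.0% with sh52 and 0.0% with their mean). At an unadjusted p under 0.05, 1 of the 10 genes (SMS) was counted with sh50, beside 8.25% of all transcripts, 0 with sh52, beside 8.78%, and 0 with their mean, beside 9.19%. Groups of 2 arrays that do not overlap are common among all transcripts. For sh50, SMOX and OAZ1 lay wholly above shGFP (18.4% of all transcripts did) and SMS wholly below (20.9%). For sh52, SAT2 lay wholly above (20.2%) and ODC1 and SMS wholly below (19.5%). Over all 4 hairpin arrays, 0 members lay above both shGFP arrays (8.98% of transcripts) and 1, SMS, below (10.1%). These shares are near those of the transcripts at large. In each hairpin comparison 4 of the members had an estimate above 0 and 6 below, with a median of -0.09 (sh50), -0.12 (sh52) and -0.10 (their mean), beside -0.01, 0.00 and -0.00 over all transcripts.

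**Figure D2:**
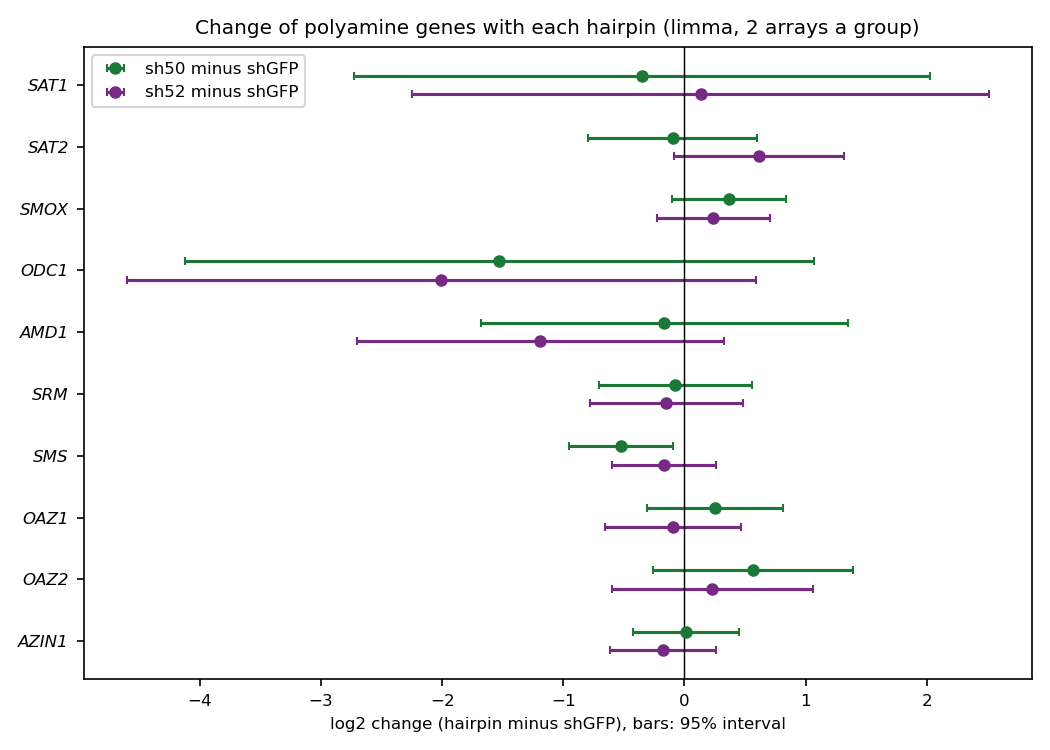
Difference of each gene in sh50 cells and in sh52 cells from shGFP cells, on the log2 scale, with 95% intervals from limma. Each interval holds 0 except that of SMS for sh50, from -0.95 to -0.09.

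Replicate 1 was then set against replicate 2 within each hairpin. SAT1 was higher on the array labelled replicate 1 of all 3 hairpins, by 1.02 in sh50 cells, 2.99 in sh52 cells and 0.48 in shGFP cells. limma gave 1.496 ± 0.50 over the 3 (95% interval 0.22 to 2.77, unadjusted p 0.0293, adjusted p 0.424), and 0.75 without either sh52 array or 0.10 with the hybridization controls as a covariate. OAZ2 was lower on replicate 1 in all 3, with differences of -0.39 in sh50 cells, -0.57 in sh52 cells and -0.74 in shGFP cells, and its estimate of -0.57 ± 0.14 had the lowest unadjusted p of the members, 0.00997 (adjusted p 0.350). SAT2 was lower too, at -0.44 ± 0.15 (unadjusted p 0.0339, adjusted p 0.437).

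In this comparison 0 of the 10 members passed an adjusted p of 0.05 in limma's fit, beside 9 of all transcripts (0.0267%), and 3 members (SAT1, SAT2 and OAZ2) had an unadjusted p under 0.05, beside 10.4% of all. The 2 members SAT1 and SMOX were higher on replicate 1 in all 3 hairpins (11.3% of all transcripts were), and 4, SAT2, OAZ1, OAZ2 and AZIN1, were lower in all 3 (20.1%). ODC1 and AMD1 did not keep 1 direction. ODC1 differed by 3.001 in sh50 cells, -1.48 in sh52 cells and 0.99 in shGFP cells, and AMD1 by 0.03, -1.77 and -0.93 in the same order. The estimate was 0.84 ± 0.83 for ODC1 (adjusted p 0.827) and -0.89 ± 0.35 for AMD1 (95% interval -1.79 to 0.01, adjusted p 0.488).

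**Figure D3:**
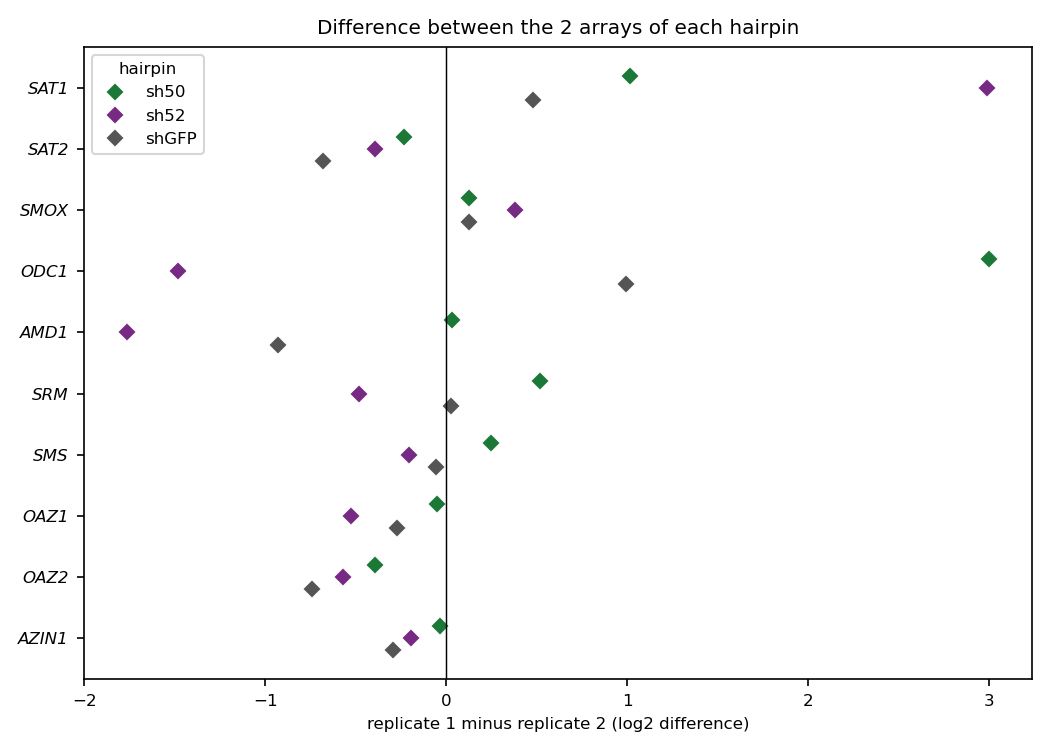
Replicate 1 minus replicate 2 on the log2 scale for each gene, with 1 diamond each for sh50, sh52 and shGFP. SAT1 lies right of 0 for all 3 hairpins, between 0.48 and 2.99, OAZ2 left of it for all 3, and ODC1 on both sides, between -1.48 and 3.001.

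Levels of cell state markers are given beside ODC1 and SAT1. Of 15 proliferation genes, all 15 had an estimate below 0 for the mean of the hairpins and 14 were lower on all 4 hairpin arrays (10.1% of all transcripts were), with 0 past an adjusted p of 0.05 and 13 at an unadjusted p under 0.05 (9.19% of all). Their median level was 11.11 and 9.90 in sh50 cells, 10.22 and 10.48 in sh52 cells, and 11.84 and 11.72 in shGFP cells. The lowest of these medians was on sh50 replicate 2, which was also the array with the lowest ODC1. For both, sh52 replicate 1 and then sh52 replicate 2 came next, and shGFP replicate 1 was highest. The order differed for sh50 replicate 1 and shGFP replicate 2, where ODC1 read 13.47 and 13.002. Of 14 genes of the response to low oxygen, all 14 had an estimate above 0 for the mean of the hairpins. Of these, 7 were higher on all 4 hairpin arrays (8.98% of all transcripts were). In limma's fit of that mean, 0 passed an adjusted p of 0.05 and 3 had an unadjusted p under 0.05 (9.19% of all). Taken alone, sh50 gave 11 estimates above 0 and 3 below (median 0.22). With sh52 there were 14 above 0 (median 0.98) among these genes. Their median level was 9.77 and 9.96 in sh50 cells, 11.87 and 10.04 in sh52 cells, and 9.22 and 9.61 in shGFP cells. It was highest on the array labelled sh52 replicate 1, where SAT1 was highest and AMD1 lowest, and the hybridization controls were highest there too. On the other arrays it did not follow SAT1: sh52 replicate 2 had the lowest SAT1 and the second highest of these medians. The part of growth state, low-oxygen response and array-wide signal in the values of these genes was not tested.

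**Figure D4:**
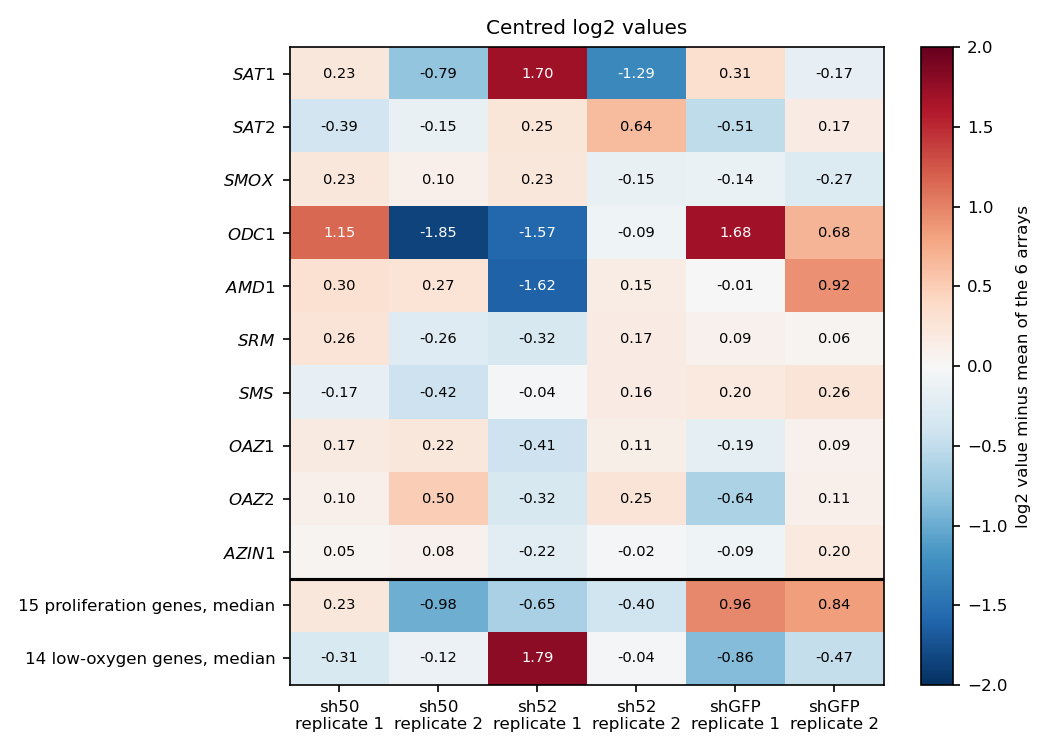
Heat map of each gene's log2 level minus its mean over 6 arrays, with the median of 15 proliferation genes and of 14 low-oxygen genes centred in the same way. ODC1 is lowest on sh50 replicate 2 and SAT1 highest on sh52 replicate 1, where the low-oxygen median is highest too.

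The rest of the polyamine pathway showed no member past the test in any list. Of 22 genes for polyamine transport, hypusine formation and further polyamine enzymes, 14 were tested, 6 lay below the filter and 2 were not analysed here; for the hairpins' mean 5 estimates were above 0 and 9 below, with 1 at an unadjusted p under 0.05 (9.19% of all transcripts), a share near that of all. The median was -0.08. That 1 gene was SLC18B1, a vesicular polyamine transporter, which read 8.85 and 8.93 in sh50 cells, 8.26 and 8.70 in sh52 cells, and 7.89 and 8.17 in shGFP cells, a difference of 0.65 ± 0.18 (unadjusted p 0.0134, adjusted p 0.469). SLC3A2, a subunit of amino acid transporters implicated in polyamine export, differed by -0.74 ± 0.53 (adjusted p 0.750). The lysosomal polyamine exporter ATP13A2 differed by 0.39 ± 0.19 (adjusted p 0.599) and its relative ATP13A3 by -0.39 ± 0.49 (adjusted p 0.885). That ATP13A3 value averages opposite signs, -0.997 ± 0.57 for sh50 and 0.22 ± 0.57 for sh52. Between replicate 1 and replicate 2, ATP13A3 differed by 1.06 ± 0.14 (adjusted p 0.180 by limma). PAOX, which oxidises acetylated polyamines downstream of SAT1, averaged 3.98 and did not pass the filter.

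Of 18 genes that supply ornithine and methionine or salvage methylthioadenosine, the by-product of SRM and SMS, 15 were tested and 3 lay below the filter, with 8 estimates above 0 and 7 below, 3 at an unadjusted p under 0.05 (9.19% of all transcripts) and a median of 0.03. ENOPH1, an enzyme of the salvage route, read 8.57 and 8.001 in sh50 cells, 8.83 and 8.75 in sh52 cells, and 9.25 and 9.30 in shGFP cells, a difference of -0.73 ± 0.19 (unadjusted p 0.00969, adjusted p 0.469). MAT2B, a regulatory subunit of the enzyme that makes S-adenosylmethionine, differed by -0.54 ± 0.15 (unadjusted p 0.0110, adjusted p 0.469). ALDH18A1, which makes the precursor of proline and ornithine, differed by 0.60 ± 0.19 (unadjusted p 0.0221, adjusted p 0.487), and ASS1, which makes argininosuccinate, by 0.79 ± 0.61 (adjusted p 0.768). MTAP, which starts the salvage, read between 3.12 and 3.18 in sh50 and sh52 cells and 3.24 and 3.22 in shGFP cells, below the filter on every array; U87MG is known to have lost the part of chromosome 9 that holds it.

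Of 15 factors known to act on ODC1 or SAT1 transcription, 12 were tested, 1 lay below the filter and 2 were not analysed here, with 5 estimates above 0 and 7 below, 0 at an unadjusted p under 0.05 (9.19% of all transcripts) and a median of -0.09. MYC, an activator of ODC1, read 7.78 and 6.86 in sh50 cells, 8.08 and 8.501 in sh52 cells, and 8.28 and 8.08 in shGFP cells. Its difference was -0.86 ± 0.34 for sh50 (unadjusted p 0.0462, adjusted p 0.600) and 0.11 ± 0.34 for sh52 (adjusted p 0.951). MXI1, which competes with MYC for MAX, read 6.98 and 7.05 in sh50 cells, 9.79 and 7.77 in sh52 cells, and 7.18 and 7.22 in shGFP cells, and its highest value was again on the array labelled sh52 replicate 1. For the mean of the hairpins, MXI1 differed by 0.70 ± 0.53 (adjusted p 0.766), MYC by -0.37 ± 0.29 (adjusted p 0.774), MXD1, a relative of MXI1, by 0.31 ± 0.22 (adjusted p 0.746) and SP1 by -0.29 ± 0.14 (adjusted p 0.584). The hairpins had opposite signs for MXD1, at 0.87 ± 0.25 for sh50 (unadjusted p 0.0155, adjusted p 0.516) and -0.25 ± 0.25 for sh52, and for MXI1, at -0.18 ± 0.62 for sh50 and 1.58 ± 0.62 for sh52 (unadjusted p 0.045, adjusted p 0.559). The difference between the hairpins was not tested.

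**Figure D5:**
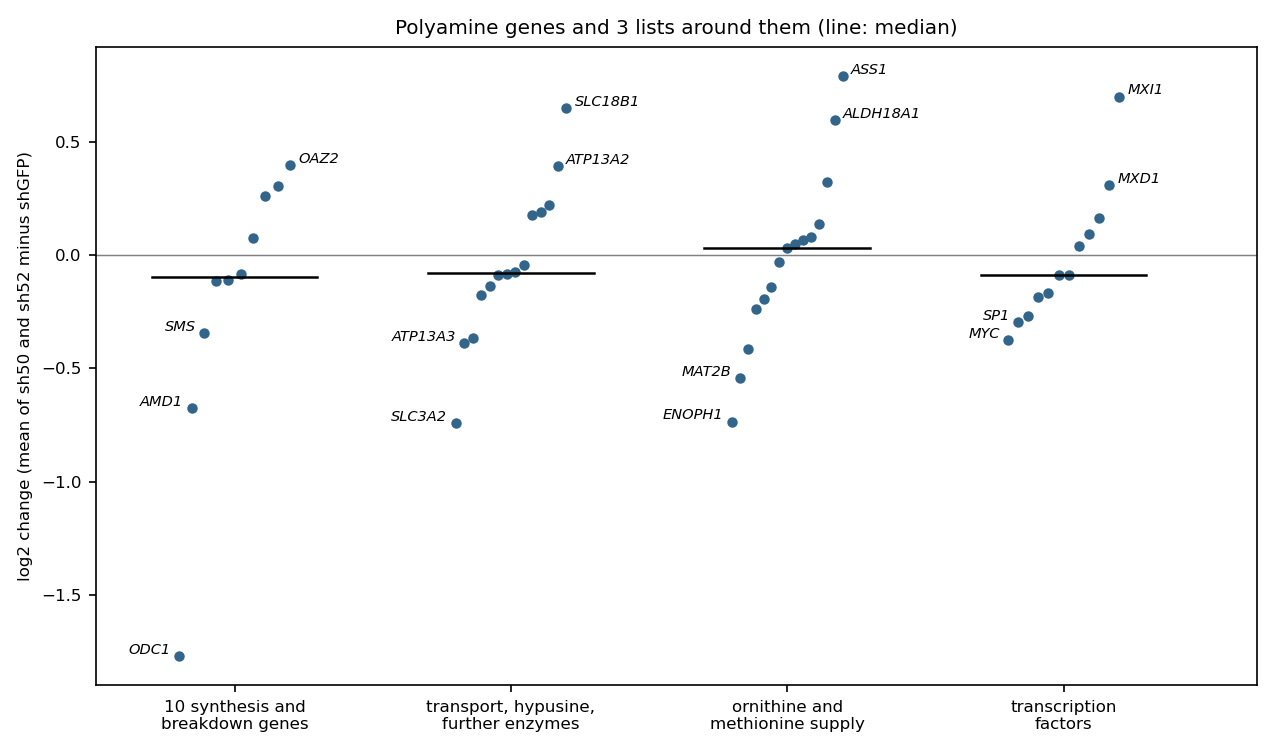
Difference of the mean of sh50 and sh52 from shGFP on the log2 scale for each tested gene, in the 10 synthesis and breakdown genes and 3 further lists, with a line at each median. ODC1 has the lowest value of all at -1.77, and the medians lie between -0.10 and 0.03.

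For the 2 genes with the widest spans, the genes with the most similar profile were found among 11873 other protein-coding genes, by the root mean square difference of values centred on each gene's mean over the 6 arrays. SAT1's own root mean square deviation was 0.94, and the median difference to all genes was 1.00. The nearest to SAT1 were BHLHE40 at 0.41, IER3 at 0.43, ENO2 at 0.45, FDCSP at 0.45 and CXCL1 at 0.47. BHLHE40, a transcription factor, read 10.15 and 9.19 in sh50 cells, 11.50 and 9.68 in sh52 cells, and 10.33 and 9.55 in shGFP cells, with its highest value on the array labelled sh52 replicate 1 as for SAT1. For ODC1, with a root mean square deviation of 1.32 and a median difference of 1.33, the nearest were EVI2B at 0.36, NRG1 at 0.45, CCND1 at 0.49, ADAMTS1 at 0.49 and SHCBP1 at 0.51. EVI2B read 6.20 and 4.02 in sh50 cells, 4.38 and 5.15 in sh52 cells, and 6.85 and 5.85 in shGFP cells, with the lowest value on sh50 replicate 2 as for ODC1. Likeness over 6 arrays is a description, and the arrays share their RNA samples. The genes were picked for it on these same values, so a shared highest or lowest array comes largely from the choice. EVI2B, at 4.02 on sh50 replicate 2, lay near the filter of 3.98 there. FDCSP read 6.55 on sh52 replicate 1 and between 4.12 and 4.52 on all other arrays, near the filter too.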

How the data were processed

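Total RNA of 6 U87MG samples was hybridised to Affymetrix human transcriptome arrays, 2 for each hairpin. Per the labels, the authors ran RMA in Expression Console as a core-exon analysis. Base 2 was assumed, so the deposited table is treated as log2 levels. The submitters' processing notes name Transcriptome Analysis Console. The labels give neither the log base nor any further scaling. Signal close to background compresses differences of dim genes.

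Control features were set aside. The annotation gave 1 symbol for 23781 transcript clusters and several for 1543, and 42204 were not listed in it; symbols were updated by gene ID for 21497, by current symbol for 1974 and by older symbol for 306, while 4 kept theirs. SMO is also an older symbol of SMOX, and its row was not taken because its gene ID differs. The 33764 transcript clusters whose mean was at or above the median of 3.98 were tested with limma 3.58.1 in R 4.3.3, with all 6 arrays and a mean per hairpin. Each gene's SE is therefore the same for sh50 and sh52, and it includes the spread of the hairpin that is not being compared. Replicate 1 was set against replicate 2 with a term for hairpin. P-values were adjusted by Benjamini-Hochberg over all tested transcripts, and 0.05 was the threshold. The fit's code was run on simulated data with planted differences larger than those of the 10 genes. That run checked the size and sign of estimates, and not the power to call differences of the size seen here. Beside the 10 genes, the text names the 4 genes of each pathway list with the largest size of difference for the mean of the hairpins, MTAP and MYC, and the 5 genes most alike SAT1 and ODC1. PAOX lies outside this rule and was named after its values were seen. The genes and lists were chosen with earlier results of these data known. Alternatives covered the filter, the scaling, the fit's options, the hybridization controls and each array left out. The mean of all rows of a gene was not a separate setting, since each of the 10 genes had 1 row.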

Additional observations from a re-analysis of the deposited data

Results flagged for a closer look

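The hybridization controls, features outside the comparisons of genes, averaged 11.52 on the array labelled sh52 replicate 1. They averaged 10.85 on sh52 replicate 2, 10.98 and 10.87 on the sh50 arrays, and 10.81 and 10.58 on the shGFP arrays, so this array stood above every control array. It also held the highest SAT1 (10.83) and the lowest AMD1 (10.34) of the 6. The part of array-wide signal in those values was not tested beyond the fit with these controls as a covariate, which is given with the other settings.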

How the results depend on the processing

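None of the 10 genes passed an adjusted p of 0.05 under any setting run, and the lowest was 0.365 for sh50, 0.163 for sh52, 0.274 for their mean and 0.147 for replicate 1 against 2. With the hybridization controls as a covariate, signs turned for SAT2 (0.11), AMD1 (0.47) and SRM (0.0419) for sh50, for SAT1 (-2.01), SMOX (-0.0461), AMD1 (0.15), SRM (0.10), OAZ1 (0.31) and AZIN1 (0.0178) for sh52, for AMD1 (0.31), SRM (0.0694), AZIN1 (0.0598), SLC3A2 (0.0616) and MXI1 (-0.25) for the mean, and for AMD1 (0.0738) and SMS (0.23) between replicates. SAT1 kept its sign but moved to -1.37 for sh50, -1.69 for the mean and 0.10 between replicates. The controls differed most within sh52, at 11.52 and 10.85 on replicates 1 and 2, so the covariate's slope rested mainly on that pair. The cause of these shifts was not tested. Quantile normalization again turned SMS between replicates to 0.0283.

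With 1 array left out at a time, where a lone array was assumed to vary like the other groups, signs turned for these differences. For sh50 they ran from -0.86 to 0.16 for SAT1, -0.44 to 0.24 for SAT2, -0.63 to 0.30 for AMD1, -0.34 to 0.18 for SRM and -0.14 to 0.16 for AZIN1. For sh52 they ran from -1.36 to 1.63 for SAT1, -0.39 to 0.0901 for SRM, -0.36 to 0.17 for OAZ1 and -0.14 to 0.60 for OAZ2. For the mean they ran from -0.86 to 0.64 for SAT1, -0.0818 to 0.60 for SAT2, -0.24 to 0.0169 for SRM, -0.0594 to 0.21 for OAZ1, -0.23 to 0.064 for AZIN1, -0.84 to 0.0638 for ATP13A3, -1.56 to 0.0754 for SLC3A2 and -0.19 to 1.77 for ASS1. Between replicates they ran from -0.24 to 2.00 for ODC1, -0.23 to 0.27 for SRM and -0.13 to 0.10 for SMS.

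The count of transcripts past the threshold for sh52 was 0 to 1 with 1 array left out, the 1 being HILPDA without sh52 replicate 2, a gene named after its values were seen. Between replicates it was 9, and 4 without the hairpin term (CXCL8, FGF7 and 2 unnamed), 2 with the hybridization controls as a covariate (PTGS2 and LIF), and 0 to 18 with 1 array left out, 18 without either sh52 array and 0 without any sh50 or shGFP array, since dropping 1 array drops its pair. These genes too were named after their values were seen.

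Replicate 1 minus 2 correlated at 0.0523 between sh50 and sh52, 0.387 between sh50 and shGFP and 0.345 between sh52 and shGFP. The labels do not pair the samples, and the data are mixed, with a correlation near 0 for sh50 and sh52 only. Whether the numbered samples were paired is not settled by these values. With the replicate block, 0 transcripts passed in each hairpin comparison and the counts at an unadjusted p under 0.05 were 3503, 3661 and 3801 for sh50, sh52 and their mean, against 2784, 2964 and 3102 without it. The number of arrays, 2 a hairpin, limits the precision.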
